A study of Mus musculus with 20 samples.

Results

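The genes described here were the nuclear-encoded genes of the mitochondrial respiratory chain, chosen by symbol and arranged by respiratory complex. The symbols began with Ndufa, Ndufb, Ndufc, Ndufs, Ndufv, Sdh, Uqcr, Cox4 to Cox8 or Atp5, together with Cyc1 and Cycs. Of the 48795 genes in the mouse heart RNAseq table, 102 protein-coding genes matched, and 2 of these, Atp5pf and Atp5po, were left out because they lie in the region duplicated on mouse chromosome 16. The remaining 100 genes are the members, and 97 of them entered the tests, their mean over hearts reaching 10 normalized counts. The other 3, Ndufb11b, Cox7b2 and Cox8c, lay below that level, and Cox8c was listed at 0 in every heart. Not every member is a subunit: 82 of the 97 build complexes I to V, while 12 are assembly factors of complexes I and II, and Cox7a2l, Atp5if1 and Cycs act beside the complexes. Despite their symbols, Ndufa4 and Ndufa4l2 were counted with complex IV and not complex I, and Cox5b-ps was also counted with complex IV.

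The respiratory chain sits in the inner mitochondrial membrane. Complex I (NADH dehydrogenase) and complex II (succinate dehydrogenase) pass electrons to coenzyme Q, complex III passes them to cytochrome c, and complex IV (cytochrome c oxidase) passes them to oxygen. Complexes I, III and IV pump protons, and complex V (ATP synthase) uses the proton gradient to make ATP. A handful of subunits are encoded by mitochondrial DNA, all of complex II and most subunits of the others are encoded in the nucleus, and the heart, which beats without rest, depends heavily on this chain.

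The data were bulk RNAseq of whole embryonic mouse hearts at E13.5, all on a C57BL/6J background, with 1 library per embryo and 20 hearts in all. There were 10 WT hearts and 5 Dp1Tyb hearts, which carry 1 copy of chromosome 16 with a tandem duplication from Lipi to Zbtb21 and so have 3 copies of the genes in that region, a model of Down syndrome (DS). A further 5 hearts, Dp1TybDyrk1a+/+/-, carry the same duplication together with the Dyrk1a tm1Mla null allele on the duplicated chromosome, which returns the number of functional copies of the kinase gene Dyrk1a to 2 while the rest of the region stays at 3. This last combination was made by a crossover and kept as a strain of its own, so it does not share all of its breeding with the Dp1Tyb hearts, and the labels do not give litters. The study's controls were WT littermates of each strain, but the labels do not say which WT hearts belong to which strain, so the 10 WT hearts were pooled, and a difference between the strains' controls cannot be told apart from the comparisons with WT. The comparison of Dp1Tyb with WT hearts shows the effect of the extra region. That of Dp1TybDyrk1a+/+/- with WT hearts concerns the region with Dyrk1a at 2 functional copies, as in WT. Only the comparison of Dp1Tyb with Dp1TybDyrk1a+/+/- hearts asks what the third functional copy of Dyrk1a adds. Both comparisons with WT share the WT hearts, and the P values measure the spread between embryos.

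Values were log2 normalized counts, so a difference of 1 is a doubling, and read depth per heart is not given by them. Dyrk1a had values of 11.65 to 11.75 in Dp1Tyb and 11.70 to 11.85 in Dp1TybDyrk1a+/+/- hearts against 11.37 ± 0.04 (SD, n = 10) in WT hearts, and since the null allele still yields reads over most of the gene, this level does not check the label of the Dp1TybDyrk1a+/+/- hearts. Atp5pf and Atp5po, the subunits in the duplicated region, were higher in Dp1Tyb than in WT hearts by 0.39 and 0.35 on the log2 scale (limma, adjusted P = 7.9e-05 and 0.00017). Heart A15 (Dp1TybDyrk1a+/+/-) stood apart, with a root mean square deviation of 0.233 from the rest of its group over all tested genes, followed by heart A10 (WT) at 0.149, while the other 18 hearts lay between 0.0586 and 0.105. Transcripts encoded by mitochondrial DNA took 8.74% of all normalized counts in A15 and 6.35% in A10, against 3.84 to 4.89% in the other 18 hearts. The counts of members are therefore given with A15 and without it. All 15 cardiomyocyte markers were detected, with a mean log2 value between 14.50 and 14.88 in every heart, and A15 was inside this range at 14.70. Bulk values cannot tell fewer cells of a type from less RNA per cell.

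Within WT hearts, the complexes differed in the transcript level of their subunits. Levels between genes are compared as log2 normalized counts per kilobase of transcript. The median over subunits was 10.47 for complex I (36 subunits), 10.64 for complex II (4), 11.35 for complex III (9), 11.79 for complex IV (18) and 11.78 for complex V (15). Each complex spanned a wide range of levels. In complex I, Ndufb8, an accessory subunit of the membrane arm, was highest, ahead of Ndufc2 at 11.30, and Ndufb2 lowest at 7.35. The rank of Ndufb2 rests on an annotated transcript of 4.39 kb, and its log2 normalized count of 9.48 lay above the 8.44 of Ndufb4. In complex II, Sdha, the flavoprotein that oxidises succinate, had 11.37 and Sdhb, the iron-sulfur subunit, had 9.55. The Sdhb level rests on an annotated transcript of 4.03 kb. Its log2 normalized counts in WT hearts were 11.44 to 11.65, close to the 11.43 to 11.71 of Sdhc. In complex III the extremes were Uqcrb at 12.22 and Uqcr11 at 9.10. The rank of Uqcr11 rests on an annotated transcript of 2.75 kb, and its log2 normalized count lay above that of Uqcrq in every WT heart. Complex IV ran from 12.96 for Cox4i1 to 4.78 for Cox5b-ps, a Cox5b copy whose reads may be shared with its parent gene. Complex V ran from 14.34 for Atp5f1b, the catalytic subunit of the F1 head and the highest of all 82 subunits, to 7.30 for Atp5mc2.

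**Figure D1:**
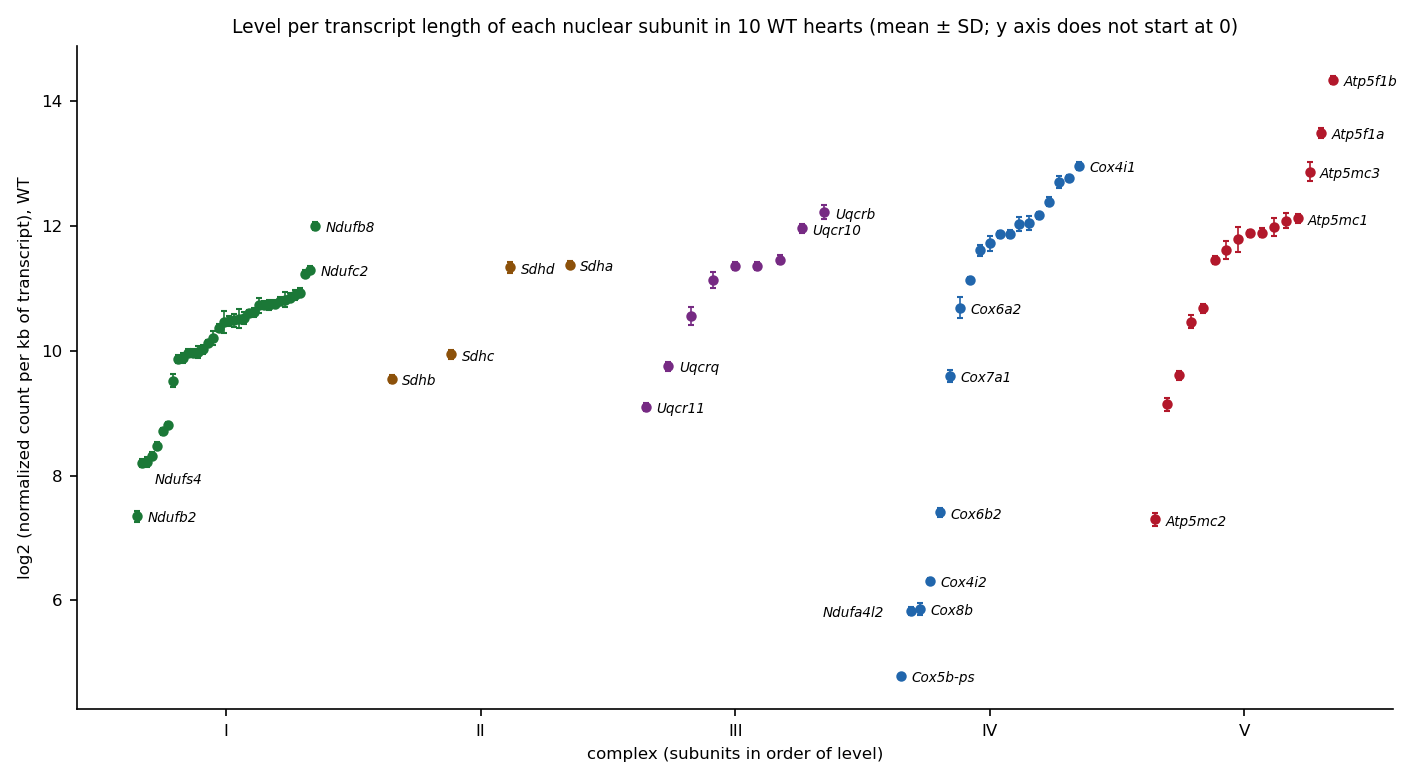
Each point is a tested subunit, grouped by complex and ordered by level on the horizontal axis, with its mean log2 normalized count per kilobase of transcript over the 10 WT hearts on the vertical axis (bars, SD; the axis does not start at 0). Levels span a wide range within each complex, Atp5f1b in complex V is highest at 14.34, and the minor isoforms of complex IV and Atp5mc2 lie far below.

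Several subunits of complex IV and of the c-ring of complex V come in isoforms, and per kilobase one form dominated most pairs at E13.5. The widely expressed Cox4i1 lay 6.65 ± 0.09 above Cox4i2 on the log2 scale (SD, n = 10 WT hearts), which is 101-fold. Cox8a lay 6.17 ± 0.07 above the heart and muscle form Cox8b, and Ndufa4 lay 6.56 ± 0.10 above Ndufa4l2. These pairs were far apart in every heart. The size of the Cox8 difference rests in part on annotated transcripts of 0.56 kb for Cox8a and 2.15 kb for Cox8b. Without the length, their log2 normalized counts in WT hearts were 11.06 to 11.36 and 6.83 to 7.10. The muscle forms Cox6a2 and Cox7a1 were closer to their widely expressed counterparts: Cox6a1 lay 1.49 ± 0.13 above Cox6a2 (2.80-fold), and Cox7a2 lay 2.01 ± 0.07 above Cox7a1 (4.02-fold). The difference of Cox6a1 from Cox6a2 was smallest in the 2 hearts that stood apart, 0.83 in A15 and 1.14 in A10. The c-ring genes Atp5mc1, Atp5mc2 and Atp5mc3 encode the same mature protein, and Atp5mc3 had the highest level, 0.75 ± 0.13 above Atp5mc1 and 5.57 ± 0.21 above Atp5mc2.

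Promoter sequences are shown for 4 members: Atp5mk, Cycs and Atp5pd, which passed the test as lower in Dp1Tyb than in Dp1TybDyrk1a+/+/- hearts once A10, or A10 and A15, were left out, and Ndufb6, whose level dropped furthest among complex I subunits in A15 and A10. They are the 250 bases before the annotated RefSeq start in GRCm38.p6, written 5′ to 3′ on the strand of the gene, at chr19:47090648-47090897 for Atp5mk, chr6:50566570-50566819 for Cycs, chr11:115419920-115420169 for Atp5pd and chr4:40279422-40279671 for Ndufb6, all on the minus strand. Capitals mark matches to 1 of 3 motifs of factors long linked to nuclear genes of the respiratory chain: GCGCA, any base and then GCGC for NRF1, CCGGAAG for the ETS family, to which GABP belongs, and AAGATGGC for YY1, each searched on both strands.
Atp5mk: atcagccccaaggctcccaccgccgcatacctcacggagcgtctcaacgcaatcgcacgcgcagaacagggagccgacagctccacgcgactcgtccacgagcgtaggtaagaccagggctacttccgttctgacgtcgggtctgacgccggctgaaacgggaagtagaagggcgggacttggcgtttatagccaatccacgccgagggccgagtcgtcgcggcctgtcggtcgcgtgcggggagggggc
Cycs: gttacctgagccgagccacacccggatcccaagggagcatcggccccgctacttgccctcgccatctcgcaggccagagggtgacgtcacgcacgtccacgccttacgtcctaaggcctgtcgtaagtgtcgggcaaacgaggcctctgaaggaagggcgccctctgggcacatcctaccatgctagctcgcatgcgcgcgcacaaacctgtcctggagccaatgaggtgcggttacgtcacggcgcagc
Atp5pd: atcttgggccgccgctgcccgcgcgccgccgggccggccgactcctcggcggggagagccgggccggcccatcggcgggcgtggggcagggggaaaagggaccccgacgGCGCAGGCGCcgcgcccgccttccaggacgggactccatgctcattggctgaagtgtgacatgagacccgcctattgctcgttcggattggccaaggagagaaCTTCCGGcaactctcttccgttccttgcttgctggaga
Ndufb6: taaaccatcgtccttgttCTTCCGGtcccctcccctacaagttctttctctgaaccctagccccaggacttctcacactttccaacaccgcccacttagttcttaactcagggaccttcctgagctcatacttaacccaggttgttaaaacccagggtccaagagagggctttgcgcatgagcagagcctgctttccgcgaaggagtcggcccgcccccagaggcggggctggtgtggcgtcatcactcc
The Atp5pd window holds an NRF1 match 141 bases and an ETS match 38 bases before the start, and the Ndufb6 window an ETS match 232 bases before it. The letters searched are not in the Atp5mk and Cycs windows shown. In the longer window of 300 bases described next, Atp5mk had an ETS match that is not within the bases shown, and Cycs had no match. Over windows of 300 bases, which add the first 50 bases of the transcript, 79 of the 97 tested members had a RefSeq window and 83 windows in all. The NRF1 letters were in 22 of the 83 (26.5%) against 6.38% of 21263 windows of protein-coding genes, the ETS letters in 21 (25.3%) against 11.6%, and the YY1 letters in 10 of the 83 against 3.05%. All 3 shares were higher among the members than among all genes. A match describes the letters and does not show binding.

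No nuclear respiratory chain gene outside the duplicated region passed the test for a change in Dp1Tyb compared with WT hearts. At an adjusted P under 0.05 in limma, 0 of 97 members were called, where 3.08% of all 15304 tested genes were. At an unadjusted P under 0.05, 1 member passed (Cox6b2) against 15.6% of all genes. The estimates were narrow: the 95% confidence interval of the fold change lay within 1.25-fold in either direction for all 97 members, and the widest bounds were -0.27 for Ndufa12 and 0.29 for Atp5f1e on the log2 scale. Of the 97 members, 51 had an estimate below 0, with a median of -0.0015, beside 51.5% and -0.0019 for all tested genes.

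The 5 complexes gave the same picture, each summarised as the mean log2 value of its subunits in a heart. For complex I the mean was 10.44 ± 0.05 in WT hearts (SD, n = 10) and 10.44 ± 0.06 in Dp1Tyb hearts (n = 5), with Dp1Tyb values of 10.46, 10.47, 10.47, 10.46 and 10.34 and a WT range of 10.35 to 10.51. Complex II had 11.96 ± 0.07 and 11.95 ± 0.02, complex III 11.46 ± 0.06 and 11.47 ± 0.05, complex IV 9.75 ± 0.05 and 9.75 ± 0.08, and complex V 11.64 ± 0.06 and 11.62 ± 0.06. In each complex the groups overlapped. The parts of the complexes and the assembly factors did not stand out: the mean of the 7 core subunits of complex I was 11.20 ± 0.06 in WT and 11.19 ± 0.02 in Dp1Tyb hearts, that of the 5 subunits of the F1 head 12.96 ± 0.08 and 12.95 ± 0.05, that of the 10 subunits of the membrane part and stalk 10.98 ± 0.06 and 10.96 ± 0.07, and that of the 12 assembly factors 8.10 ± 0.03 and 8.11 ± 0.02 (SD). The Dp1Tyb minus WT difference was between -0.016 in complex V and 0.008 in complex III, smaller than the spread between hearts. The single Dp1Tyb heart from lane 7, A12, was the lowest of the 20 hearts in 19 members, beside 5.33% of all genes. It was the lowest Dp1Tyb heart in complexes I to V, and without it 64 of 97 members had an estimate above 0, with a median of 0.0207. Leaving out the WT heart A10 moved the members the other way. Then 68 of 97 lay below 0, with a median of -0.0127, beside 52.1% of all genes. Without the WT heart A19, 59 of 97 lay below 0, with a median of -0.0101. Within lanes 3 and 6, which hold 2 Dp1Tyb and 4 WT hearts each, 61 of 97 members lay above WT in either lane, and in lane 7, with A12 and 2 WT hearts, 6 did.

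**Figure D2:**
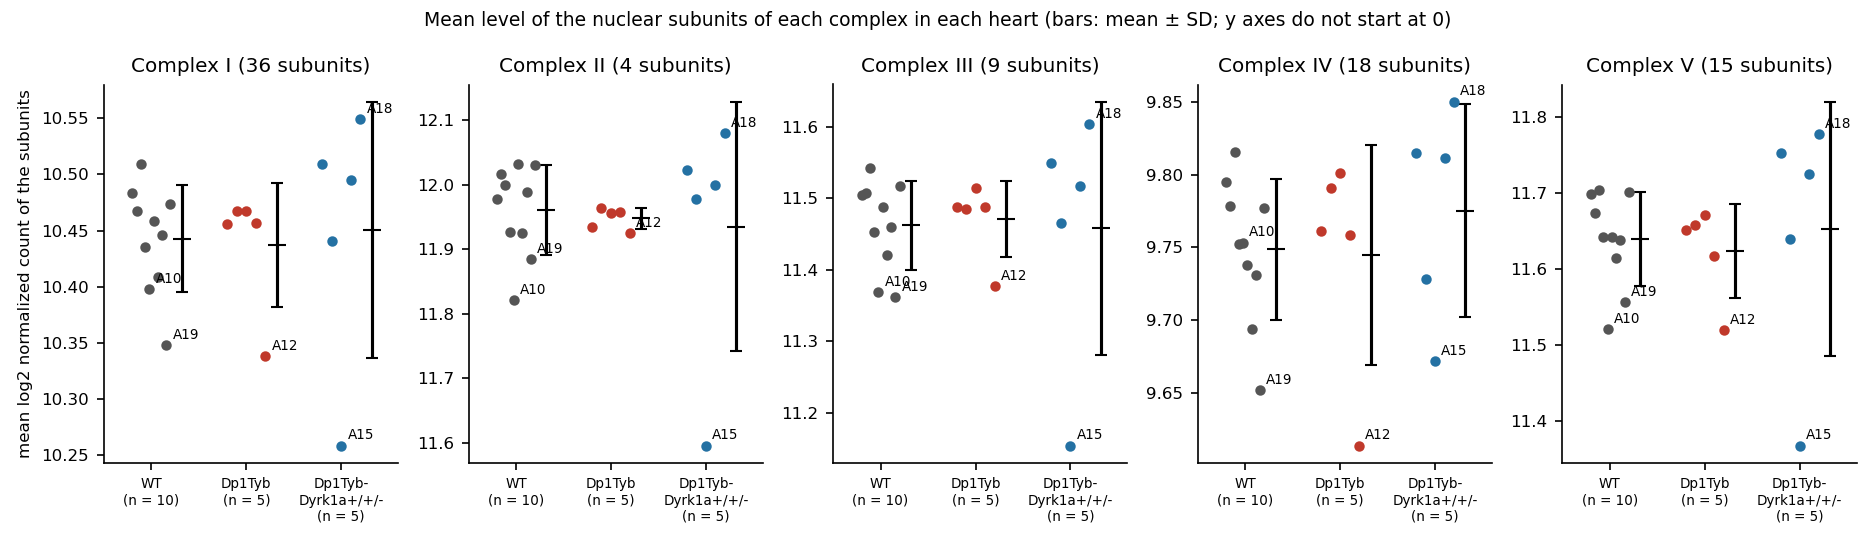
Each panel plots the mean log2 normalized count over the subunits of a complex in each of the 20 hearts, by group, with the group mean ± SD beside the points and the hearts at the edges named; the vertical axes differ and do not start at 0. A15 lies below all other hearts in complexes I, II, III and V. Without A15, the Dp1Tyb hearts lie below the Dp1TybDyrk1a+/+/- hearts in complex II, and the groups overlap in the other complexes.

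Cox6b2, the form of the intermembrane space subunit Cox6b best known from testis, was the member nearest to a change. Its log2 normalized counts in Dp1Tyb hearts were 6.81, 6.81, 6.80, 6.84 and 6.69, and in WT hearts the lowest, median and highest values were 6.59, 6.65 and 6.82. All 5 Dp1Tyb hearts lay above the WT median, and the groups overlapped. The log2 difference was 0.12 ± 0.037 (SE), with adjusted P = 0.093 with all hearts and 0.045 without A15 (limma), the only member called in that comparison without A15, where 6.27% of all genes were called. Without both A15 and A10 it was 0.056. Without the WT heart A5 the log2 difference was 0.13 and the limma adjusted P 0.033, beside 415 of 15304 genes called. A15 is in neither of these groups, so leaving it out alone changed the shared estimate of the spread and not the difference. With only the Dp1Tyb and WT hearts in the fit, 0 members were called, beside 779 of 15304 genes. The Dp1TybDyrk1a+/+/- hearts had 6.77, 6.78, 6.65, 6.81 and 6.74, a log2 difference of 0.08 from WT hearts (adjusted P = 0.52). Per kilobase the widely expressed Cox6b1 lay 5.29 ± 0.12 above Cox6b2 in WT hearts.

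In Dp1TybDyrk1a+/+/- compared with WT hearts, again 0 of 97 members were called, beside 0.712% of all genes, and 6 members (6.19%) had an unadjusted P under 0.05 beside 9.64% of all genes. With all 5 hearts, 43 members lay below 0, with a median of 0.0079. The direction depended on heart A15. Without it, 93 of 97 members lay above WT, with a median log2 difference of 0.0583, while 49.1% of all tested genes lay above. Every subunit of complexes I (36 of 36), II (4 of 4), III (9 of 9) and V (15 of 15) lay above WT, as did 15 of 18 in complex IV. The median difference over subunits was 0.055 in complex I, 0.065 in complex II, 0.064 in complex III, 0.061 in complex IV and 0.081 in complex V. In this fit 0 members were called, beside 0.908% of all genes, and 19 members (19.6%) against 12.7% of all genes had an unadjusted P under 0.05. The members do not vary independently, so the count above 0 is a description of these 4 hearts.

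How many members lay above WT depended on which hearts and lanes were used. Without A15, the count was 93 with each heart centred on its median and 92 after quantile normalization. Leaving out A18 as well, the heart with the highest value in 36 members (beside 3.38% of all genes), gave 85. Within lanes 3, 6 and 7 it was 58, 87 and 91 of 97, and lanes 3 and 6 hold only 1 Dp1TybDyrk1a+/+/- heart each. The mean of complex I was 10.50 ± 0.04 in the 4 hearts (SD) against 10.44 ± 0.05 in WT, a difference of 0.056, and the differences for complexes II to V were 0.059, 0.072, 0.052 and 0.084. These differences of 1.04-fold to 1.06-fold were about the size of the SD between hearts. For the 12 assembly factors the mean was 8.15 ± 0.01 in the 4 hearts against 8.10 ± 0.03 in WT, and 7.99 in A15.

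The Dp1Tyb and Dp1TybDyrk1a+/+/- hearts both carry the duplication and differ by design in the third functional copy of Dyrk1a, and also in strain. With all hearts, 0 of 97 members were called, beside 1.16% of all genes, and 15 members (15.5%) had an unadjusted P under 0.05, beside 18.5% of all genes. In 52 members the estimate was below 0 (median -0.0061). Without A15, 92 of 97 members lay lower in Dp1Tyb, with a median of -0.0633, where 49.9% of all genes lay lower. 0 members were called, beside 1.31% of all genes, and 25 members (25.8%) against 17.9% of all genes had an unadjusted P under 0.05. The median over subunits was -0.056 in complex I, -0.072 in complex II, -0.052 in complex III, -0.061 in complex IV and -0.088 in complex V. In complex II the mean of the 4 subunits was lower in each of the 5 Dp1Tyb hearts, at 11.92 to 11.96, than in the 4 remaining Dp1TybDyrk1a+/+/- hearts, at 11.98 to 12.08. In the other complexes the groups overlapped. Without A15 and within lanes, the count of members below 0 was 43 in lane 3, 71 in lane 6 and 96 in lane 7, and without A12 as well it was 80.

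**Figure D3:**
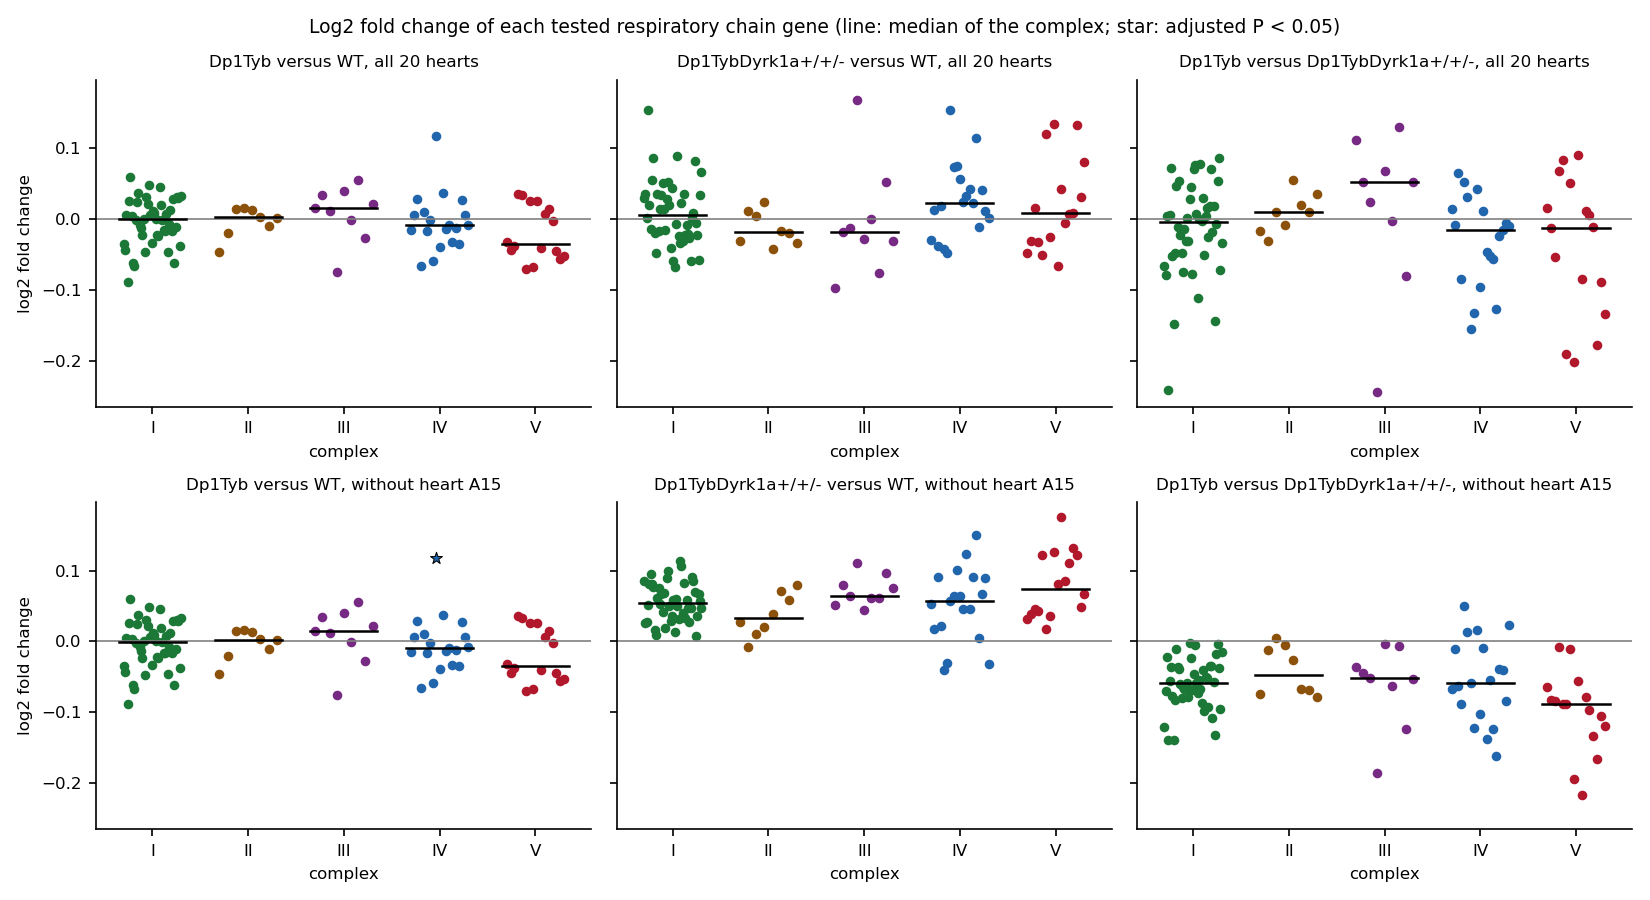
Each point is a tested member of complexes I to V or a factor assigned to them (Cycs is not drawn), placed by complex on the horizontal axis and by its limma log2 fold change on the vertical axis, for the 3 comparisons with all hearts (top) and without A15 (bottom). Lines are medians over the points and include the factors, and the star marks Cox6b2 (adjusted P under 0.05); without A15, 93 of 97 members lie above 0 in Dp1TybDyrk1a+/+/- versus WT and 92 of 97 below 0 in Dp1Tyb versus Dp1TybDyrk1a+/+/-.

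The mean values of some cell marker lists and of the mitochondrially encoded subunits were also shifted between these groups, with overlapping ranges. Their part in the member values was not tested. Without A15, all 15 cardiomyocyte markers lay lower in Dp1Tyb than in Dp1TybDyrk1a+/+/- hearts, with a median of -0.11. The range of their mean log2 value was 14.55 to 14.73 in the 5 Dp1Tyb hearts, 14.66 to 14.77 in the 4 Dp1TybDyrk1a+/+/- hearts and 14.50 to 14.88 in the WT hearts. In the opposite direction, 9 of 10 fibroblast and mesenchyme markers lay higher in Dp1Tyb, with mean values of 12.77 to 12.90 against 12.60 to 12.80. No marker of either list was called, with all hearts or without A15. Of the other cell markers only Lyz2, a macrophage marker, was called. With all hearts it was 0.23 higher in Dp1Tyb than in Dp1TybDyrk1a+/+/- hearts (limma adjusted P = 0.033), beside 0.425% of all genes called higher. Without A15 it was not called there. Against WT hearts it was 0.28 higher in Dp1Tyb (limma adjusted P = 0.00049), beside 1.81% of all genes. The 13 mitochondrially encoded subunits had a mean of 14.70 ± 0.10 in Dp1Tyb and 14.86 ± 0.10 in the 4 Dp1TybDyrk1a+/+/- hearts (SD), and a median difference of -0.17.

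A small group of members came closest to a change between Dp1Tyb and Dp1TybDyrk1a+/+/- hearts, and they belong to different complexes. Atp5mk is a small membrane subunit of complex V. Its log2 normalized counts were 11.11, 11.10, 11.11, 11.05 and 10.91 in Dp1Tyb, and 11.26, 11.10, 11.28 (A15), 11.26 and 11.26 in Dp1TybDyrk1a+/+/- hearts, with a WT lowest, median and highest of 10.99, 11.10 and 11.23. Apart from A14 at 11.10, the Dp1TybDyrk1a+/+/- hearts lay above every Dp1Tyb and WT heart. The log2 difference was -0.18 ± 0.045 (SE), with a limma adjusted P of 0.052 with all hearts, 0.080 without A15, 0.030 without A10 and 0.034 without both.

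Atp5pd, subunit d of the peripheral stalk of complex V, had 12.10, 12.12, 12.11, 12.07 and 11.98 in Dp1Tyb and 12.23, 12.12, 12.26 (A15), 12.19 and 12.24 in Dp1TybDyrk1a+/+/- hearts. The lowest Dp1TybDyrk1a+/+/- heart, A14, lay just above the highest Dp1Tyb heart, so the groups did not overlap. The log2 difference was -0.13, with an adjusted P of 0.10 with all hearts, 0.15 without A15, 0.039 without A10 and 0.045 without both (limma).

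Uqcrb, a subunit of complex III, had 11.29, 11.33, 11.36, 11.34 and 11.18 in Dp1Tyb and 11.56, 11.35, 11.78 (A15), 11.49 and 11.53 in Dp1TybDyrk1a+/+/- hearts, with a WT lowest, median and highest of 11.23, 11.37 and 11.63. A14 lay inside the Dp1Tyb range and the other 4 lay above it. The log2 difference was -0.24 with all hearts (adjusted P = 0.075). Without A15 it was -0.19 (adjusted P = 0.12), and 0.030 was the adjusted P without A10 and A15 (limma).

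Cycs, cytochrome c, carries electrons from complex III to complex IV and takes part in apoptosis. It had 11.18, 11.25, 11.27, 11.34 and 11.33 in Dp1Tyb and 11.49, 11.40, 11.91 (A15), 11.48 and 11.48 in Dp1TybDyrk1a+/+/- hearts, and these groups did not overlap. The WT hearts ran from 11.24 to 11.78, with a median of 11.33, and A10 was the highest of them. The log2 difference between Dp1Tyb and Dp1TybDyrk1a+/+/- hearts was -0.28 with all hearts (adjusted P = 0.12). Without A15 it was -0.19 (adjusted P = 0.21), and 0.024 was the adjusted P without A10 and A15 (limma).

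Without A10 these 4 members fell in Dp1Tyb compared with Dp1TybDyrk1a+/+/- hearts, where 2.64% of all genes were called and 1.63% fell. A10 is a WT heart and in neither of these groups. Leaving it out alone did not change the differences, only the estimate of the spread that the 3 groups share. With only the hearts of the 2 groups compared in the fit, 0 members were called, and 3 of all 15304 genes. Without both A10 and A15, 5 members fell, the same 4 and Ndufs4, beside 3.96% of all genes called and 2.6% that fell. Ndufs4, an accessory subunit of complex I whose loss causes Leigh syndrome, had 10.20, 10.24, 10.24, 10.19 and 10.14 in Dp1Tyb and 10.32, 10.29, 9.86 (A15), 10.31 and 10.31 in Dp1TybDyrk1a+/+/- hearts. A15 was below every other heart and the remaining 4 were above every Dp1Tyb heart, so the log2 difference was -0.02 with A15 and -0.11 without it (adjusted P = 0.90 and 0.11, and 0.034 without both hearts, limma). None of the 5 was called against WT in either group in these fits.

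**Figure D4:**
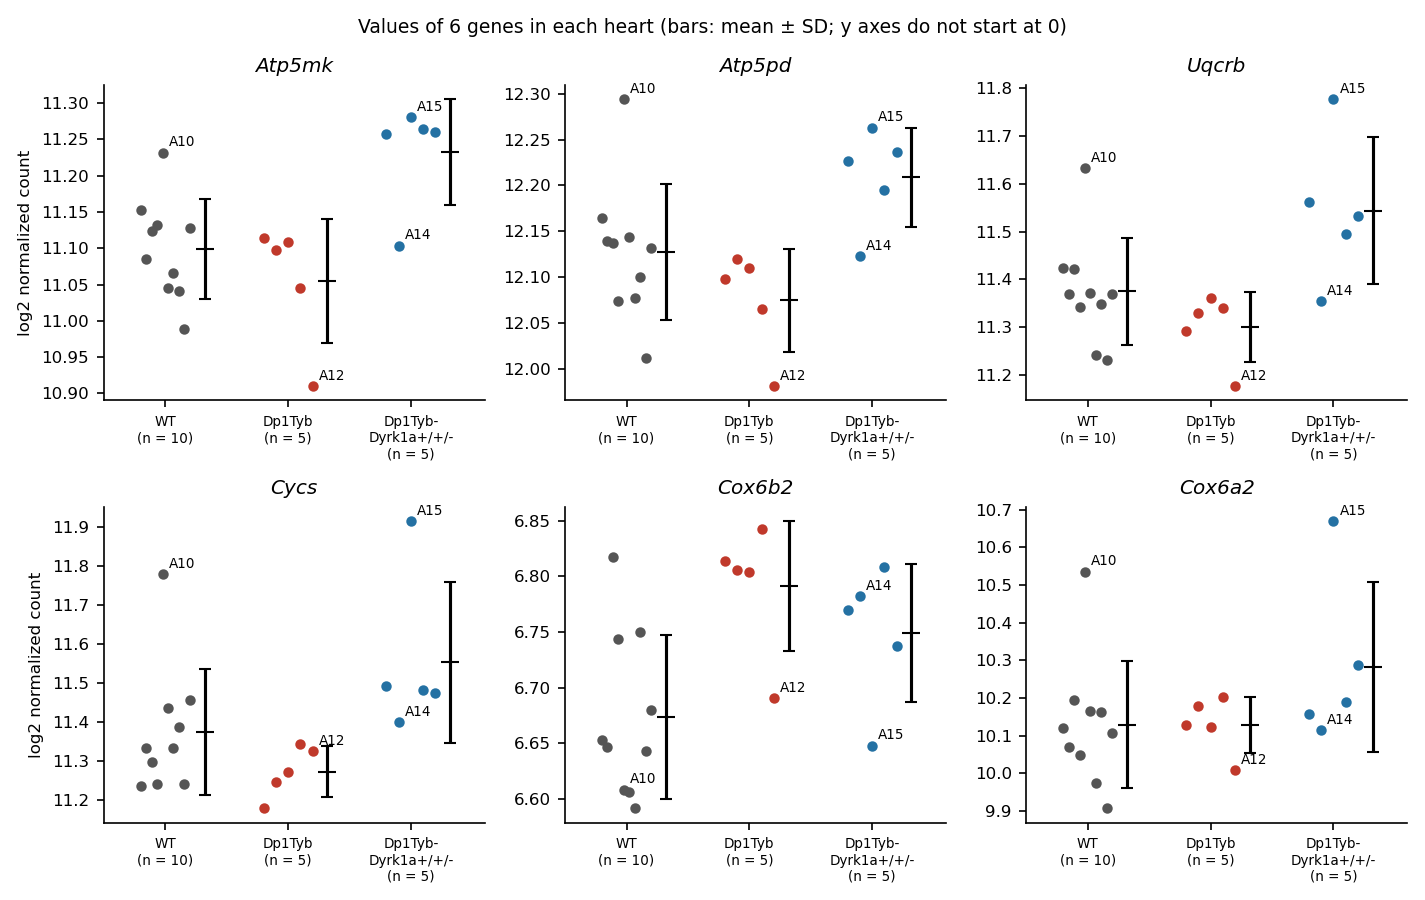
Log2 normalized counts of Atp5mk, Atp5pd, Uqcrb, Cycs, Cox6b2 and Cox6a2 on the vertical axes in each of the 20 hearts, by group, with the group mean ± SD beside the points. In Cycs and Atp5pd the 5 Dp1Tyb hearts lie below all 5 Dp1TybDyrk1a+/+/- hearts, and in Cox6a2 the hearts A15 (10.67) and A10 (10.54) are the highest of their groups.

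With all hearts, 4 members had non-overlapping values between Dp1Tyb and Dp1TybDyrk1a+/+/- hearts, all lower in Dp1Tyb: Ndufa10, Cox6c, Atp5pd and Cycs, where 3.55% of all genes did not overlap in that direction. Without A15 there were 8, adding Ndufaf6, Ndufs1, Ndufs4 and Sdhc, beside 5.33% of all genes. Ndufa10, an accessory subunit of complex I, had Dp1Tyb values of 11.51, 11.57, 11.53, 11.57 and 11.56 and Dp1TybDyrk1a+/+/- values of 11.61, 11.59, 11.67, 11.60 and 11.67, a log2 difference of -0.08 (limma adjusted P = 0.20). Cox6c, a complex IV subunit, differed by -0.10 (limma adjusted P = 0.13). Between Dp1Tyb and WT, and between Dp1TybDyrk1a+/+/- and WT hearts, 0 members had non-overlapping values, beside 2.63% and 0.64% of all genes. Sdhc, which anchors complex II in the membrane, had 11.61, 11.63, 11.62, 11.61 and 11.59 in Dp1Tyb hearts and 11.68, 11.65, 11.66 and 11.74 in Dp1TybDyrk1a+/+/- hearts other than A15, where it was 11.29. The confidence interval lay within 1.25-fold for 94 of 97 members in Dp1TybDyrk1a+/+/- versus WT and for 87 in Dp1Tyb versus Dp1TybDyrk1a+/+/- hearts.

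The largest differences among members lay between single hearts rather than between genotypes. A15 was the lowest of all 20 hearts in 56 of 97 members and the highest in 9, beside 26.0% and 22.8% of all genes. Relative to the mean of the other 4 Dp1TybDyrk1a+/+/- hearts, its values were below in 78 members and above in 19, with a median of -0.27. It lay below all 4 in 71 members (73.2%, beside 38.2% of all genes) and above all 4 in 15 (15.5%, beside 37.7%). The median was -0.28 in complex I, -0.42 in complex II, -0.38 in complex III, -0.10 in complex IV and -0.38 in complex V. Complex IV was the exception in level too: A12 at 9.61 and A19 at 9.65 had lower means than A15 at 9.67.

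A10 differed from the other WT hearts in many of the same members. Atp5f1e, the epsilon subunit of the F1 head, had the largest negative deviation in both hearts. It had 9.82 in A15 against 10.58 to 10.74 in the rest of its group, and 10.05 in A10 against 10.52 to 10.75 in the rest of the WT hearts. Ndufb6 had 9.33 in A15 against 10.03 to 10.11, and 9.57 in A10 against 9.85 to 10.12. Other members were high in both hearts. Ndufa12, an accessory subunit of complex I, had 11.35 in A15 against 10.76 to 10.88, and 11.28 in A10 against 10.64 to 10.82. Cox6a2 had 10.67 in A15 against 10.11 to 10.29 and 10.54 in A10 against 9.91 to 10.19. Atp5if1, which inhibits ATP synthase when it runs in reverse, had 11.92 in A15 against 11.31 to 11.44 and 11.79 in A10 against 11.25 to 11.40. Both hearts were thus outside the range of the rest of their groups, in the same direction, in these 5 members.

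Over the members, 40 lay below the range of the rest of the group in both hearts and 14 lay above it in both: Atp5if1, Atp5mk, Atp5pd, Cox6a2, Cox6b1, Cycs, Ndufa12, Ndufa5, Ndufaf2, Ndufb4, Ndufs6, Ndufv3, Sdhaf1 and Uqcrb. Of the 5 members called without A10 and A15, 4 (Atp5mk, Atp5pd, Uqcrb and Cycs) are among these 14. A10 alone lay above the range of the other WT hearts in 23.7% of members, beside 23.2% of all genes. It lay below that range in 42.3% of members, beside 22.8% of all genes. The share of all genes outside the range in both hearts was not computed, so the counts of 40 and 14 have no such share beside them. Across the 97 members, the deviations of A15 and A10 from their own groups had a Pearson r of 0.91 and a Spearman rho of 0.89, and across all tested genes 0.66 and 0.59. These correlations are across genes, which are not independent, with 2 hearts from different groups and lanes. With log2 transcript length, the deviations of the members had an r of 0.02 in A15 and 0.06 in A10, and those of the 15167 tested genes with a length had an r of 0.21 and -0.06. The mitochondrially encoded subunits had mean log2 values of 15.76 in A15 and 15.33 in A10, against 14.61 to 14.99 in the other hearts, in the opposite direction to most members. The part of this share in the member values was not tested.

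**Figure D5:**
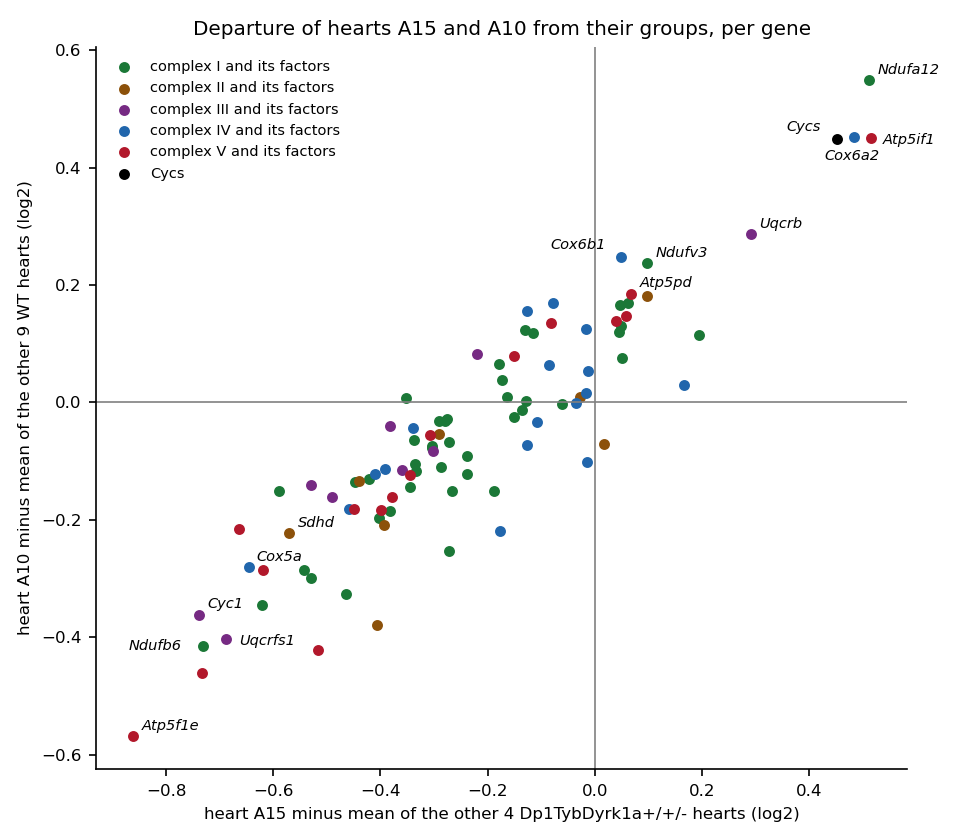
Each point is a member, coloured by complex, placed by its log2 value in A15 minus the mean of the other 4 Dp1TybDyrk1a+/+/- hearts (horizontal) and in A10 minus the mean of the other 9 WT hearts (vertical). Atp5f1e (-0.86 and -0.57) and Ndufa12 (0.51 and 0.55) lie near the ends of the distribution.

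Other genes of the pathway, taken from lists, were called as follows. Of the assembly factors outside the symbols above, 38 of 40 were tested and 0 were called in each of the 3 comparisons, and of 13 genes of coenzyme Q synthesis 0 were called, both with all hearts and without A15. Of 18 transcriptional regulators of mitochondrial genes, 1 rose and 2 fell in Dp1Tyb compared with WT hearts, where 1.81% of all genes rose and 1.27% fell. The one that rose was Gabpa, a subunit of the ETS factor GABP that lies in the duplicated region, by 0.30 on the log2 scale, and it was 0.44 above WT in Dp1TybDyrk1a+/+/- hearts (limma adjusted P = 1.28e-05 and 3.15e-08). Those that fell were Gabpb2, a partner subunit of Gabpa, and the deacetylase Sirt1, each by 0.09 (limma adjusted P = 0.039 and 0.026). Without A15 these were called again, and Gabpb1, the other partner subunit of Gabpa, also fell by 0.09 (limma adjusted P = 0.047). That made 3 that fell, where 3.32% of all genes rose and 2.95% fell. A15 is neither a Dp1Tyb nor a WT heart, so leaving it out changed only the shared estimate of the spread in this comparison. Of the 13 mitochondrially encoded subunits, mt-Nd6, a complex I subunit, passed the test between Dp1Tyb and Dp1TybDyrk1a+/+/- hearts, with mean values of 12.84 and 13.22 and a log2 difference of -0.37 (limma adjusted P = 0.023, and 0.033 without A15). Ndufv3, whose human orthologue is on chromosome 21 while the mouse gene lies outside the duplication, had a log2 difference of 0.03 in Dp1Tyb and 0.07 in Dp1TybDyrk1a+/+/- from WT hearts, neither called.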

How the data were processed

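RNA from 20 E13.5 mouse hearts (10 WT, 5 Dp1Tyb, 5 Dp1TybDyrk1a+/+/-) was sequenced by the authors on 3 lanes. The submitters' processing notes name Trimmomatic 0.36, STAR 2.5.2a, RSEM 1.2.31, DESeq, DESeq2 and GRCm38. The deposited values are log2 normalized counts per gene made by the authors, who pooled no replicates, and the exact transformation is not given in the sources used here. Total reads per heart cannot be read from them, so the depth is unknown and no counting interval is given. The median SD between WT hearts was 0.044 over genes with 10 to 100 normalized counts and 0.059 over those with 100 to 1000, so differences of weakly expressed genes may be understated.

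Genes were tested with limma 3.58.1 in R 4.3.3 (lmFit, eBayes with trend) on the log2 values of all 20 hearts with group as the only term. Only the 15304 of 48795 genes whose mean over hearts reached 10 normalized counts were tested, and P values were adjusted by Benjamini-Hochberg over all of them at 0.05, two-sided. Members were found by symbol, without duplicated genes, and the members and lists were chosen with earlier results of these data known. Genes named were those past the threshold in any comparison, the 3 with the largest moderated t per complex and comparison, the highest and lowest level per complex, the isoforms, Ndufv3, Cycs, Cyc1, Atp5if1, and for comparison Dyrk1a, Atp5pf and Atp5po. Of those 3 per complex, only members nearest the threshold are described. Ndufa10, Ndufs4, Sdhc, Ndufb6, Ndufa12, Atp5f1e, Gabpa and the other genes named for single hearts or lists were chosen after their values were seen where that rule does not name them. Complex means are means of log2 values over structural subunits. The fitting code was tested on simulated data. Alternatives were another filter, scaling, moderation, a weight per heart, lane as a term, only the hearts compared, and each heart left out. Promoter windows came from RefSeq (GRCm38.p6) and were matched by Ensembl gene identifier, or by symbol or synonym where that failed. A few older symbols were accepted only where the window sequence lay at or near the gene. Transcript length came from the canonical transcript. Summaries were made in Python 3.11.15 with pandas 2.3.3 and numpy 2.4.6. The table held 0 columns that could be given to no heart.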

Additional observations from a re-analysis of the deposited data

Results flagged for a closer look

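The following values, in a group of 5 or 10 hearts, lay further from the nearest other heart than Dixon's 95% critical value allows. Of 171 groups of values looked at, 38 did so, where chance gives about 1 in 20 for independent groups. These groups come from the same 20 hearts and from genes that vary together. They are not independent, so the count does not measure an excess over chance. A15 accounted for 12, A12 for 12, A10 for 11 and A14 for 3.

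In heart A15 (Dp1TybDyrk1a+/+/-), the mean of complex II was low at 11.60, as were Cyc1 at 11.05, Uqcrc1 at 11.87, Uqcrfs1 at 11.07, Sdhd at 11.18, Sdhaf4 at 7.03, Cox4i1 at 12.25, Atp5mc3 at 12.20, Atp5pf at 11.82 and Atp5po at 12.77, while Atp5if1 at 11.92 and Cycs at 11.91 were high. The 2 duplicated subunits Atp5pf and Atp5po had WT ranges of 11.60 to 11.79 and 12.59 to 12.77, so A15 lay at or just above the top of WT in these. In heart A10 (WT), Atp5if1 at 11.79, Cycs at 11.78, Uqcrb at 11.63, Cox6a2 at 10.54, Cox6b1 at 12.32, Ndufv3 at 10.87 and Sdhaf1 at 8.07 were high, and Cyc1 at 11.41, Uqcrfs1 at 11.33, Atp5mc3 at 12.44 and Sdhaf4 at 7.06 were low.

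In heart A12 (Dp1Tyb), the means of complex I at 10.34, complex III at 11.38 and complex IV at 9.61 were low. So were Atp5mc3 at 12.78, Atp5pf at 11.97, Cox5b at 11.51, Cox6b1 at 11.86, Cox6b2 at 6.69, Cox7a2 at 11.08, Ndufa4 at 11.31, Ndufa5 at 9.99 and Ndufs6 at 9.82. In heart A14 (Dp1TybDyrk1a+/+/-), Atp5mk at 11.10, Cox6b1 at 12.08 and Ndufa5 at 10.24 were low. A10, A12, A14 and A15 came from lanes 6, 7, 3 and 7.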

How the results depend on the processing

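The number of members called moved from 0 under some settings. For Dp1Tyb versus WT it was 1 with a weight per heart and 1 without A15, beside 9.29% and 6.27% of all genes. Leaving out each heart in turn gave 0 to 1, and it was also 1 (Cox6b2) without the WT heart A5, beside 415 of 15304 genes. For Dp1TybDyrk1a+/+/- versus WT it was 1 with a weight per heart (Atp5mk), beside 2.23% of all genes, and 0 to 0 with each heart left out. For Dp1Tyb versus Dp1TybDyrk1a+/+/- it was 1 (Atp5mk) with a minimum mean normalized count of 100, beside 273 of 11399 genes. It was also 1, again Atp5mk, with each heart centred on its median (225 of 15304 genes) and without the moderation trend (252 of 15304). With a weight per heart it was 5 (Atp5mk, Atp5pb, Atp5pd, Cycs and Uqcrb), beside 8.15% of all genes. It was 4 without A10 and 5 without A10 and A15, beside 2.64% and 3.96%. Leaving out each heart in turn gave 0 to 4 there, with 4 without A10, 2 without A14 (302 of 15304 genes) and 1 without A19 (167 of 15304). With only the hearts of both groups in the fit it was 0, beside 3 of 15304 genes. The Dp1TybDyrk1a+/+/- minus WT difference of complex IV was 0.026 as a mean and -0.033 as a median over members. In the other 352 recomputations of a complex difference the value moved by less than the pooled SD between hearts, which A15 itself widens. Without A15 the Dp1TybDyrk1a+/+/- minus WT difference went from -0.025 to 0.059 in complex II, from -0.004 to 0.072 in complex III and from 0.013 to 0.084 in complex V, moves of more than the WT SDs of 0.069, 0.062 and 0.062. No called gene changed sign, and the cause of each change was not tested. The counts of members above or below 0 without A15 were added after seeing the data, as were their lane and scaling values and complex IV without Cox5b-ps. No paired analysis was possible because the labels give no replicate numbers shared between groups. With 5 hearts a group, lane 7 holding 1 Dp1Tyb and 3 Dp1TybDyrk1a+/+/- hearts, and no depth, precision is limited by the spread between hearts: the median SE of a member was 0.049 on the log2 scale in both comparisons with WT and 0.056 in the third.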
